A study of Mus musculus with 4 samples.

Results

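A set of 9 genes of lymphocyte adhesion were followed in CD8+ T cells of mouse BM after SCT. They were taken by name: the integrin α subunit genes Itga4, Itgal, Itgae and Itga1, the integrin β subunit genes Itgb1, Itgb7 and Itgb2, and the genes of CD44 (Cd44) and PSGL-1 (Selplg). All 9 were found among the 17561 genes of the count table, and none was chosen by its measured level. The cells came from 4 groups of myeloma-bearing mice at week 4 after SCT, which received a TIGIT-blocking antibody with vehicle (αTIGIT), isotype control with lenalidomide (Len), both drugs, or isotype control with vehicle (cIg). Recipients were on a C57BL/6 background, either WT or CRBN transgenic, and were transplanted with BM and T cells of genetically matched donors. The antibody or isotype was given from the day of transplant and lenalidomide or vehicle from a later day until harvest. CD8+ T cells of 5 mice were pooled in each group, and the sort as described names no marker that separates graft from host T cells. The labels do not say which libraries came from WT and which from CRBN transgenic mice. The deposited tables number the libraries 1 to 4 without a treatment, so no value below is assigned to a treatment. The libraries are summed for most values, and the main results are also shown library by library.

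Integrins are pairs of an α and a β chain that hold leukocytes to other cells and to matrix. α4 pairs with β1 to form VLA-4, which binds VCAM-1 and fibronectin in BM, and with β7 to form the gut-homing receptor for MAdCAM-1. αL pairs with β2 to form LFA-1, the receptor for ICAM that seals the contact of a T cell with its target. αE with β7 binds E-cadherin on epithelium and α1 with β1 binds collagen, and both are known from tissue-resident T cells. CD44 binds hyaluronan and is a common marker of antigen-experienced T cells, and PSGL-1 is the ligand through which T cells roll on selectins.

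In GRCm38 (GENCODE M21), Itga4 spans 2:79255426-79333123 on the plus strand and Itgb1 spans 8:128685654-128733200 on the plus strand. The partner Itgb7 lies at 15:102215995-102231944 on the minus strand. Itgal was placed at 7:127296260-127335138 (plus) and Itgb2 at 10:77530252-77565708 (plus). Itgae lies at 11:73090583-73147446 (plus) and Itga1 at 13:114953096-115101964 (minus). Cd44 lies at 2:102811141-102901665 (minus) and Selplg at 5:113818536-113832644 (minus). All are protein coding, with UMIs counted over the gene. They differ in abundance in the table, from 259 UMIs of Itgae and 1020 of Itga1 to 46323 of Itga4 and 78721 of Selplg. Values of Itgae and Itga1 therefore rest on few molecules in any single library.

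Promoter sequences of RefSeq (GRCm38.p6, 250 bases before to 50 after the start of the gene) matched 5 of the 9 genes. Those of Itga4 and Itgb1, the chains of VLA-4, are shown because their transcripts were high in the same clusters, as given below. Each runs 5′ to 3′ on the plus strand to base 20 after the start, with motif matches in capitals.
Itga4, chr2:79255176-79255445: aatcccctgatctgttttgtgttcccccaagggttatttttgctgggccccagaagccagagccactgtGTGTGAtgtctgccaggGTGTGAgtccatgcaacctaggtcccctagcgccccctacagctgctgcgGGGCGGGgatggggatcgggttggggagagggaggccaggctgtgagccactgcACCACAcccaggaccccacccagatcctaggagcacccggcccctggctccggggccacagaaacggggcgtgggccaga
Itgb1, chr8:128685404-128685673: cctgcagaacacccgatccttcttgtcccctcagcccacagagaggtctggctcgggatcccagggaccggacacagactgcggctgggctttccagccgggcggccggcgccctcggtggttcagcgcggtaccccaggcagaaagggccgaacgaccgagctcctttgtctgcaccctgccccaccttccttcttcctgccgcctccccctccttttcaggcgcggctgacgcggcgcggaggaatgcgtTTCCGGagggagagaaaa
The following 5 short motifs of factors known in T cells were searched on both strands: the RUNX core TGTGGT, the ETS core CCGGAA, the T-box site TCACAC, the MYB core CNGTTG and the KLF and SP box GGGCGGG. The Itga4 promoter held 1 RUNX core on the minus strand, starting 60 bases before the start, 2 T-box sites on the minus strand, at 181 and 164 bases before it, and 1 KLF and SP box at 114 bases before it. The Itgb1 promoter held 1 ETS core, on the minus strand at base 3 after the start. The promoters of Itgb7, Itga1 and Cd44 held no match to these letters. Of 27025 promoters of this length, 16.9% held the RUNX core, 15.2% the ETS core, 14.4% the T-box site, 35.1% the MYB core and 25.8% the KLF and SP box, and a match describes letters in the window and no binding.

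The table held 11754 cells in 8 clusters named by the authors, with 1725 to 4237 cells, 15556967 to 38440687 UMIs and a median of 7115 to 7669 UMIs per cell in a library, and a TCR call in 59.1% to 76.2% of cells. Marker levels were set against the cluster names. Ccr7 and Il7r were highest in Tn, and the markers of division in cycling cells. Levels are in CPM, the UMIs of a gene per 1000000 UMIs of the cells. TIGIT+ Teff held 313 CPM of Tigit, below the 567 CPM of TIM-3+ Tex, and Havcr2, which encodes TIM-3, was at 78.8 and 76.7 CPM, so these 2 names do not single out their clusters by mRNA. Tcm held 26.3 CPM of Ccr7 and 217 of Cd8b1, against 226 and 1165 in Tn. Transcripts of 11 macrophage genes were found in 97.0% of GzmA+ Tex cells (1854 CPM) and in 10.4% to 54.5% of cells of the other clusters (23.3 to 277 CPM). Fcer1g is among the 11, and the authors associate it with an innate-like T cell subset, so these transcripts need not all come from macrophages. Between libraries, 56 cell barcodes were shared, 112 cells in all, and 0 of the 28 shared barcodes with a TCR in both cells had the same clonotype.

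Itga4 was lower in Tn and Tcm than in any cluster of effector (Teff), exhausted (Tex) or cycling cells in each library, and of these GzmB+ Teff was the closest to them. In Tn the CPM of libraries 1 to 4 were 68.8, 129, 78.2 and 66.3, and in Tcm 121, 139.8, 127 and 102. In transitory Teff they were 587, 577, 559 and 513, and in TIGIT+ Teff 1282, 946, 1646 and 931. The lowest library of transitory Teff thus lay above the highest of Tn and Tcm, and the lowest of TIGIT+ Teff above the highest of cycling cells, 905 CPM. Over the libraries together TIGIT+ Teff held 1335 CPM (95% Poisson interval 1307 to 1364), followed by cycling cells (636), transitory Teff (554), TIM-3+ Tex (476), GzmA+ Tex (461), GzmB+ Teff (265), Tcm (116) and Tn (84.1). Here, as for all values below, intervals cover counting error only. TIGIT+ Teff was at the top and GzmB+ Teff, Tcm and Tn at the bottom of this order in 4 of 4 libraries. Cycling cells and transitory Teff changed places in 2 of 4 libraries, as did TIM-3+ Tex and GzmA+ Tex.

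The share of cells with Itga4 was likewise highest in TIGIT+ Teff and lowest in Tn and Tcm. After each cell was thinned to 2500 UMIs, to remove the difference in depth, an Itga4 UMI was found in 15.2% of Tn and 21.8% of Tcm cells, in 70.9% of transitory Teff, in 68.7% of cycling cells and in 88.2% (95% Clopper-Pearson interval 85.8% to 90.4%) of TIGIT+ Teff. Without thinning the shares were 31.6%, 42.2%, 89.4% and 96.8%, at median depths of 7834, 6958, 5545 and 6047 UMIs. No cluster here is known to lack these genes, so no share from free RNA could be set beside them. At least 3 thinned UMIs of Itga4 were held by 60.2% of TIGIT+ Teff, 25.9% of cycling cells, 21.7% of transitory Teff and 1.12% of Tn cells.

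Itgb1, which encodes the β chain of VLA-4, varied less between clusters. It was at 134 CPM in Tn, 168 in Tcm, 167 in TIM-3+ Tex and 173 in GzmB+ Teff. It reached 249.2 CPM in GzmA+ Tex, 325 in transitory Teff and 329.6 in cycling cells. TIGIT+ Teff held 562 CPM (544 to 580.3), with 499, 401, 719.9 and 544 in libraries 1 to 4, and was the highest cluster in each. GzmB+ Teff, Tcm and TIM-3+ Tex did not keep an order between libraries.

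Itgb7, the other partner of α4, had its own pattern. Cycling cells were the highest cluster in 4 of 4 libraries, with 229.8, 204, 287 and 265 CPM, and TIM-3+ Tex (79.9, 85.1, 78.1 and 82.9) and Tcm (89.5, 90.3, 74.1 and 93.4) the lowest. Tn held 149 CPM, above GzmA+ Tex (112) in 4 of 4 libraries, so the naive cells that were lowest in Itga4 and Itgb1 were not low in Itgb7. Of the UMIs of both β chains, Itgb1 made up 47.3% (45.5% to 49.0%) in Tn, 65.2% in Tcm, 65.1% in transitory Teff, 67.2% in TIM-3+ Tex, 57.2% in cycling cells and 75.9% (74.7% to 77.1%) in TIGIT+ Teff. In single libraries that share lay between 42.5% and 54.3% in Tn and between 73.6% and 77.2% in TIGIT+ Teff, without overlap.

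The chains of LFA-1 were present in all clusters and lowest in Tn. Itgal was at 126, 128, 129 and 121 CPM in libraries 1 to 4 of Tn and at 421, 417, 630.1 and 432 in TIGIT+ Teff, while the other 6 clusters lay between 197 and 224 CPM over the libraries together and changed places between libraries. Itgb2 was at 239 CPM in Tn, 344 in GzmB+ Teff, 404 in Tcm, 420.2 in GzmA+ Tex, 421 in transitory Teff and 459.7 in cycling cells. TIM-3+ Tex, at 483 CPM, and TIGIT+ Teff, at 632 CPM, held the most. For both chains Tn was the lowest and TIGIT+ Teff the highest cluster in 4 of 4 libraries.

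The chains of tissue-resident cells were rare. A UMI of Itgae was found in 1.497% of all cells and a UMI of Itga1 in 6.47%. Itgae was at 4.69, 2.80, 10.1 and 5.39 CPM in libraries 1 to 4 of Tn, and at 1.16, 2.07, 1.33 and 0.283 CPM in Tcm, from 63 and 24 UMIs. Itga1 was at 1.56, 1.199 and 2.54 CPM in libraries 1, 2 and 4 of Tn, and library 3 held none, which allows up to 1.12 CPM. In Tcm it was at 19.6, 5.33, 5.65 and 15.9 CPM, and in TIGIT+ Teff at 31.7, 13.7, 14.7 and 13.9. Itga1 was thus higher in Tcm than in Tn in each library, and libraries 1 and 4 of Tcm held more than libraries 2 and 3.

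Cd44 and Selplg differed little. Cd44 ranged from 50.4 CPM in TIM-3+ Tex to 99.7 in TIGIT+ Teff, with Tcm second at 83.7 and Tn at 54.9. TIGIT+ Teff was the highest in 4 of 4 libraries, while the order of cycling cells, Tn and GzmB+ Teff changed between libraries. Selplg ranged from 661 CPM in TIM-3+ Tex to 848 in TIGIT+ Teff, and was found in 82.6% of thinned Tn cells and 86.5% of TIGIT+ Teff. Although TIGIT+ Teff was at the top for Selplg over the libraries together, it was above transitory Teff in 0 of 4 libraries.

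**Figure D1:**
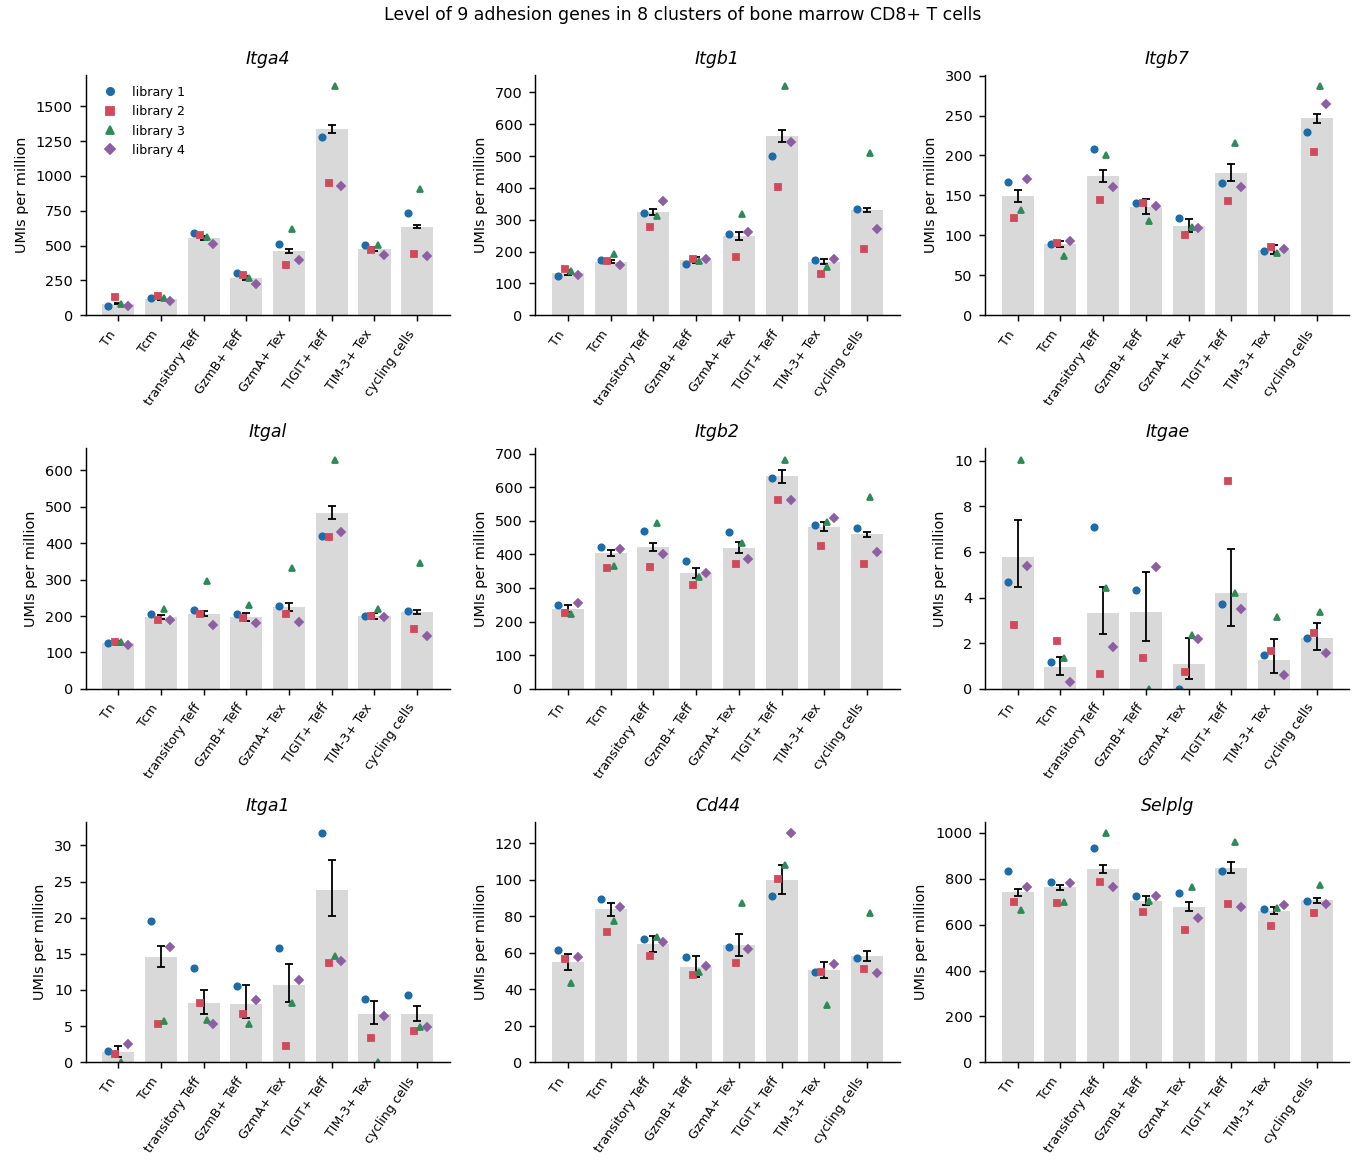
Level of each gene in CPM (vertical axis, starting at 0) in the 8 clusters (horizontal axis). Grey bars are the libraries together with 95% Poisson intervals and points are libraries 1 to 4. Itga4 stands at 1335 CPM in TIGIT+ Teff and 84.1 in Tn, Itgb7 is highest in cycling cells (246 CPM) and Selplg lies between 661 and 848 CPM.

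Clusters were then set against each other for all 10991 genes with at least 100 UMIs. A gene was called where its CPM differed at least 2-fold over the libraries together and in the same direction in each library. The clusters were made from the same counts, so these ratios describe the clusters and no test was made. Median ratios over all genes tested stand beside those of the 9 genes for the same reason.

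Against the 1342 Tn cells, the 5066 cells of the 5 Teff and Tex clusters held more transcript of VLA-4 and of α1, and less of αE. Itga4 was at 594 against 84.1 CPM, a log2 ratio of 2.82 (95% interval 2.73 to 2.92), with 3.29, 1.91, 3.52 and 2.74 in libraries 1 to 4. Itgb1 was at 288 against 134 CPM (log2 1.11, 1.03 to 1.19), and between 0.58 and 1.59 in single libraries. Itga1 was at 10.6 against 1.38 CPM (log2 2.94, 2.21 to 3.79), from 452 and 15 UMIs. These 3 of 9 genes were called higher, where 13.5% of all genes were. Itgae was at 2.62 against 5.78 CPM (log2 -1.14, -1.60 to -0.67), from 112 and 63 UMIs, and was the 1 gene called lower, where 1.82% of all genes were. Itgal (log2 0.98) and Itgb2 (0.93) were higher in each library and just under 2-fold. Cd44 (0.23), Selplg (0.02) and Itgb7 (-0.12) differed little, with no common direction in the libraries. The median log2 ratio was 0.93 over the 9 genes and 0.31 over all genes.

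The call of Itgae was lost when each cell was thinned, when 1 cell per clonotype was kept, when clusters were taken by Leiden number, when cells with macrophage, B or plasma cell transcripts were left out, and without library 3. Both Itgae and Itga1 lost the call when 10 CPM were added to both sides.

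Tcm differed from Tn in fewer of these genes. Itga1 was at 14.6 CPM in Tcm (log2 3.40, 2.66 to 4.25, from 373 and 15 UMIs) and was called higher, as were 5.46% of all genes. Itgae was called lower (log2 -2.63, -3.37 to -1.93), as were 1.97% of all genes. Itga4 was only 1.38-fold higher in Tcm (log2 0.47), in contrast to its 7.07-fold difference between the Teff and Tex clusters and Tn. Itgal (0.66), Itgb2 (0.76) and Cd44 (0.61) were higher and Itgb7 (-0.74) lower in Tcm in 4 of 4 libraries, each under 2-fold. The median was 0.47 for the 9 genes and 0.13 for all genes. The call of Itgae was lost in 5 of the alternatives, among them thinning and leaving out cells with macrophage, B or plasma cell transcripts, which in Tcm leaves 613 of 3418 cells. Itga1 stayed called in them, with 15.2 CPM in the Tcm cells and 1.04 CPM in the Tn cells that were left.

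Cycling cells held most of these genes at levels near those of the 5 Teff and Tex clusters. None of the 9 genes was called, where 8.22% of all genes were in either direction. Itgb7 was at 246 against 137 CPM (log2 0.84, 0.79 to 0.89), higher in each library by 0.71, 0.73, 0.76 and 1.04. Itga1 was lower in each library (log2 -0.66, -0.91 to -0.40). The other 7 genes lay between -0.23 and 0.20. Cycling cells were the deepest, with a median of 13960 UMIs per cell against 6820 in the Teff and Tex clusters. Itgb7 in cycling cells was above that in the Teff and Tex clusters under every alternative tried, by 0.74 to 0.97.

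Among the 5 Teff and Tex clusters, TIGIT+ Teff (816 cells) held the most transcript of each of the 9 genes over the libraries together, though for Itgb7 and Selplg it did not stand above transitory Teff in most libraries. For Itgae, with 27 UMIs, it was above GzmB+ Teff in 2 of 4 libraries and below transitory Teff in libraries 1 and 3. Against the other 4 Teff and Tex clusters (4250 cells) Itga4 was at 1335 against 463 CPM (log2 1.53, 1.49 to 1.56), with 1.35, 1.05, 1.75 and 1.15 in libraries 1 to 4. Itgb1 was at 562 against 239 CPM (1.23), Itgal at 484 against 206 CPM (1.23) and Itga1 at 23.8 against 8.24 CPM (1.53). These 4 of 9 genes were called higher, where 13.0% of all genes were. Itga1 lost its call with 10 CPM added to both sides and without cells with macrophage, B or plasma cell transcripts. Cd44 (0.77), Itgb2 (0.58), Itgb7 (0.45) and Selplg (0.20) were less than 2-fold higher. Most of the cells came from libraries 1 and 3, with 436 and 271, and library 2 gave 50. Without library 3 the log2 ratios were 1.39 for Itga4, 1.06 for Itgb1 and 1.09 for Itgal.

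A property of the cluster moves with these ratios. In TIGIT+ Teff 3 nuclear transcripts, Malat1, Neat1 and Kcnq1ot1, made up 6808 CPM, against 2373 to 3085 in the other clusters, and the median mitochondrial share was 2.87% against 1.73% in the other Teff and Tex clusters. Long genes were higher as a class: the median log2 ratio was -0.14 in genes under 5 kb, 0.46 between 20 and 50 kb, 0.77 between 50 and 100 kb and 0.88 between 100 and 200 kb, and Spearman's rho of ratio and length was 0.52 over 10987 genes, which are not independent of each other. Itga4, of 77.7 kb with its introns, stood above the median of its length range, and 3.70% of the genes in that range had a ratio at least as high. Itgal (38.9 kb) and Itgb1 (47.5 kb) stood at 1.23, where the median of their range was 0.46. Selplg (14.1 kb) and Cd44 (90.5 kb) were close to theirs. The part of nuclear or unspliced RNA in these ratios was not tested.

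**Figure D2:**
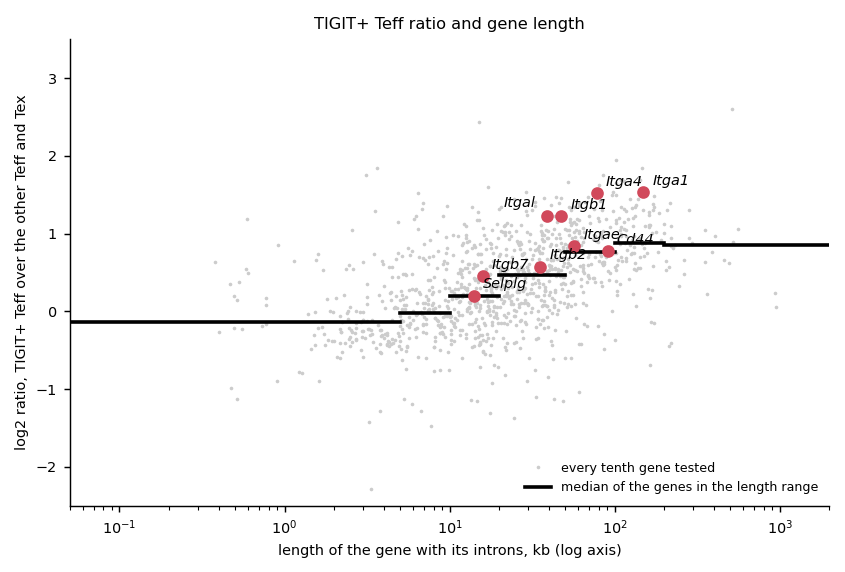
Log2 ratio of TIGIT+ Teff over the other Teff and Tex clusters (vertical axis) against the length of the gene with its introns in kb (horizontal log axis). Grey points are a regular sample of the genes tested, black bars the median of the genes in a length range, and red points the 9 adhesion genes. Itga4 (1.53), Itga1 (1.53), Itgal (1.23) and Itgb1 (1.23) stand above the bars, while Selplg (0.20) lies on its bar.

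TIM-3+ Tex (1056 cells) had less transcript of both partners of α4 than transitory Teff (1891 cells), and nearly as much of α4. Itgb7 was at 81.8 against 174 CPM (log2 -1.09, -1.21 to -0.98), with -1.38, -0.76, -1.36 and -0.96 in libraries 1 to 4, and was called lower, as were 1.97% of all genes. Itgb1 was at 167 against 325 CPM (log2 -0.96, -1.04 to -0.88), lower by 0.88 to 1.09 on the log2 scale in each library and just short of the call. Itga4 was at 476 against 554 CPM (-0.22), lower in 4 of 4 libraries. Selplg (-0.35) and Cd44 (-0.36) were also lower in 4 of 4. Itgb2 was slightly higher in each (0.20), and Itgal (-0.04) had no common direction. Without library 1, which gave 486 of the TIM-3+ Tex cells, Itgb7 lost the call and Itgb1 gained it. Library 3 gave 31 cells of TIM-3+ Tex.

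**Figure D3:**
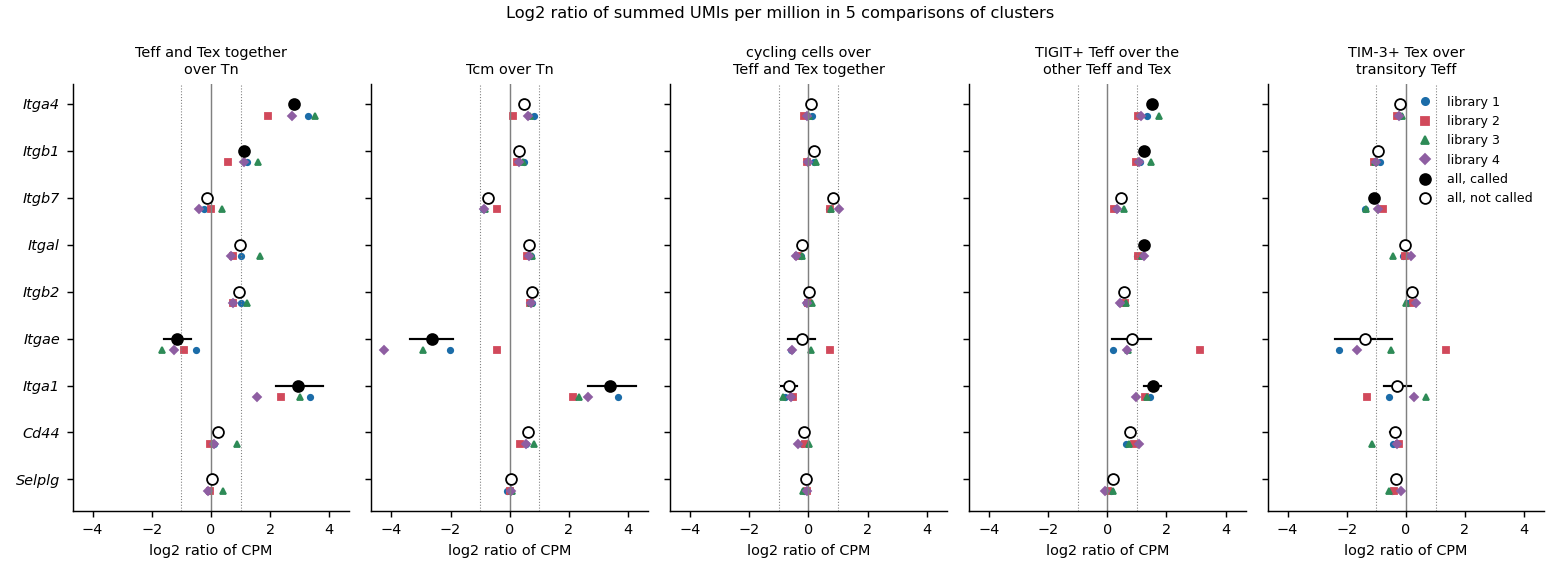
Log2 ratio of summed CPM (horizontal axis) of the 9 genes (vertical axis) in 5 comparisons of clusters. Large circles are the libraries together with 95% intervals, filled where called, small points are libraries 1 to 4 and dotted lines mark 2-fold. Itga4 lies at 2.82 for the Teff and Tex clusters over Tn and at 0.47 for Tcm over Tn, and Itgb7 lies at 0.84 in cycling cells and at -1.09 in TIM-3+ Tex.

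Clone size was read from the TCR sequences and not from the counts of these genes. Whether TCR transcripts entered the clustering is not given in the sources used here. A cell was called expanded where at least 2 cells of its library carried its clonotype and single where it was the only 1. In transitory Teff, 1076 expanded and 368 single cells were compared. Itga4 was at 709, 674, 601 and 636 CPM in expanded cells of libraries 1 to 4 and at 500.2, 532, 568 and 436 in single cells. It was higher in expanded cells in each library, and over the libraries by 0.41 on the log2 scale (0.32 to 0.50), under the 2-fold of the call. Expanded and single cells also differed in effector and exhausted markers, as given below. Itga1 was at 4.64 CPM (28 UMIs) in expanded and 17.1 CPM (43 UMIs) in single cells (log2 -1.89, -2.63 to -1.17), lower in 4 of 4 libraries and called, as were 1.62% of all genes. Itgae was at 1.82 against 6.78 CPM, from 11 and 17 UMIs, lower in 3 of 4 libraries. Itgb1, Itgb7, Itgal, Itgb2, Cd44 and Selplg lay between -0.29 and 0.08.

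The same comparison was made in the other clusters after these values had been seen. Itga4 was higher in expanded than in single cells in 4 of 4 libraries in 7 of the 8 clusters, Tcm being the exception (89.3 against 111 CPM, 2 of 4 libraries). The difference was largest in GzmB+ Teff. There the 141 expanded cells held 616, 528, 641 and 409 CPM in libraries 1 to 4, and the 361 single cells 94.996, 161, 92.3 and 107. The groups did not overlap, and over the libraries 512 (463 to 565) stood against 115 (103 to 127) CPM, a log2 ratio of 2.16 (1.95 to 2.37). Itga4 was the 1 gene of the 9 called higher there, where 3.68% of all genes were. Single cells of this cluster were thus near the level of Tcm, 116 CPM, and expanded ones near that of transitory Teff. In clonotypes of 2 to 4 cells Itga4 was at 317 CPM (42 cells) and in those of at least 5 cells at 601 CPM (99 cells).

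Other markers differed between the same GzmB+ Teff cells. The effector genes Gzma, Gzmb, Prf1, Ifng, Ccl5 and Nkg7 together were at 34311 CPM in expanded and 11188 in single cells, and Pdcd1, Havcr2, Lag3, Tox, Tigit and Entpd1 together at 1664 and 211 CPM. The median depth was 4766 and 7733 UMIs per cell. The part of these differences in that of Itga4 was not tested.

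In TIGIT+ Teff Itga4 was at 2312, 1307, 2715 and 1763 CPM in expanded cells of libraries 1 to 4 and at 1217, 1032, 1585 and 625 in single cells, with 9 expanded cells in library 2 and 9 single cells in library 4. Expanded cells were the higher in each library (log2 0.88, 0.771 to 0.996). A TCR call was present in 44.6% of TIGIT+ Teff cells. The median depth was 3524 UMIs in expanded and 3598 in single cells, against 9273 in the 452 cells without a call. These values, and those within clonotypes below, thus describe the shallower part of this cluster. In GzmA+ Tex Itga4 was at 604 against 293 CPM (1.04) and in TIM-3+ Tex at 527 against 402 CPM (0.39), with 42 single cells. In cycling cells it was at 886, 426, 1079 and 464 CPM in expanded and 557, 403, 474 and 361 CPM in single cells (0.67, 0.59 to 0.75). In Tn, 34 expanded cells were at 279 CPM and 1113 single cells at 74.0 CPM, and Itgb1 was at 264 and 126 CPM, with 2 expanded cells in library 3. The same effector genes were at 11820 and 5833 CPM and the same 6 genes of exhausted cells at 216 and 73.7 CPM in these cells. Itgb1 followed in cycling cells (394 against 269.7 CPM, higher in 3 of 4 libraries) and TIGIT+ Teff (948 against 625 CPM, 3 of 4).

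The integrins of resident cells went the other way in cycling cells. Itga1 was at 3.14 CPM (27 UMIs) in expanded and 14.6 CPM (46 UMIs) in single cells, a log2 ratio of -2.22 (-2.96 to -1.50). Itgae was at 0.815 CPM (7 UMIs) and 9.22 CPM (29 UMIs), a log2 ratio of -3.50 (-4.94 to -2.28). Both were lower in expanded cells in 4 of 4 libraries and were the 2 genes called lower, where 2.37% of all genes were. In Tcm Itga1 had the opposite sign (21.8 against 13.8 CPM, 3 of 4 libraries), so its relation to clone size was not common to all clusters.

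**Figure D4:**
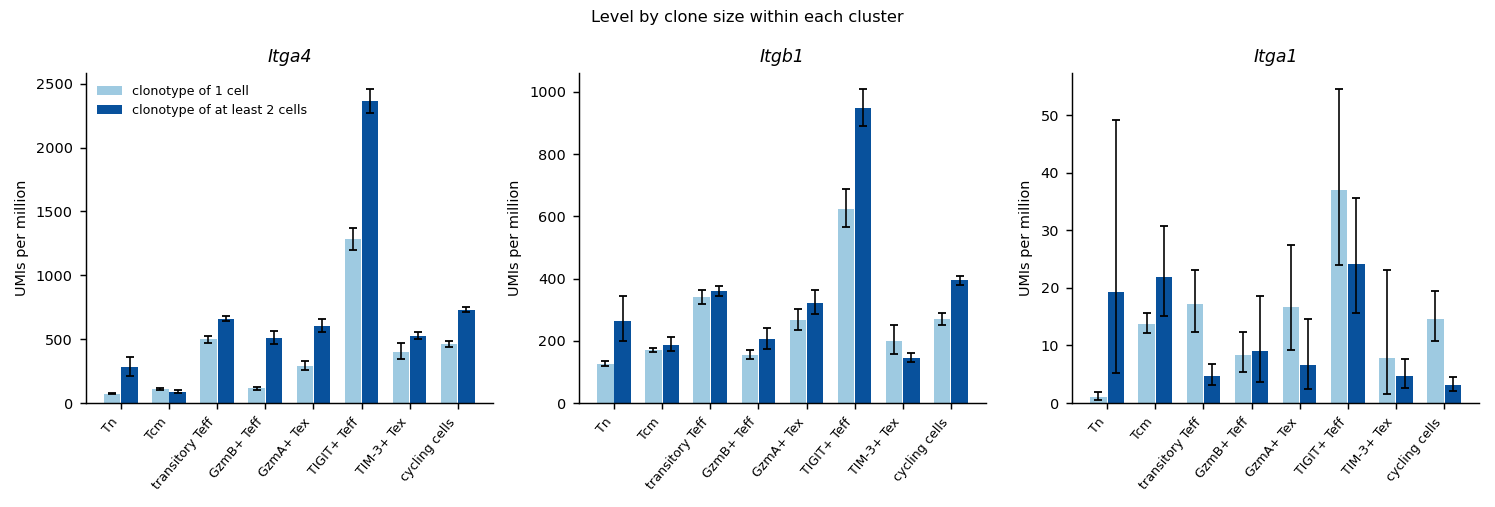
Level in CPM (vertical axis, starting at 0) of Itga4, Itgb1 and Itga1 in cells of single clonotypes (light) and of clonotypes with at least 2 cells (dark) in each cluster (horizontal axis), with 95% Poisson intervals. Itga4 stands at 512 against 115 CPM in GzmB+ Teff and at 2363 against 1281 in TIGIT+ Teff, and Itga1 at 4.64 against 17.1 CPM in transitory Teff.

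Cells of 1 clonotype in different clusters allow the clusters to be compared among cells with the same TCR call. Clonotypes with at least 10 cells in both clusters were used, a choice made after the levels had been seen. TIGIT+ Teff and transitory Teff shared 6 such clonotypes, in libraries 1 and 3, with 10 to 18 cells of each in TIGIT+ Teff. A pair of them shared a TRB chain, which left 5 sets with no chain in common. Itga4 was at 1815 to 3468 CPM in TIGIT+ Teff and at 523 to 855 CPM in transitory Teff, higher in 6 of 6. In the clonotype of TRBV26 and TRAV9-1 in library 3 it was at 3468 CPM (207 UMIs, 13 cells) and 603 CPM (66 UMIs, 14 cells). Itgal (488 to 1122 against 128 to 466 CPM), Itgb1 (439 to 1424 against 207 to 478 CPM), Itgb2 and Cd44 were also higher in 6 of 6. Selplg was higher in 5 and Itgb7 in 4 of 6. Of all genes, 10.0% were higher in every one of these clonotypes, and genes with no UMI on either side of a clonotype could not be among them.

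TIM-3+ Tex and transitory Teff shared 11 clonotypes in libraries 1, 2 and 4. Several shared a TRB chain, and 3 carried 2 TRB chains, so the 11 formed 5 sets with no chain in common. Itgb1 was at 59.9 to 216 CPM in TIM-3+ Tex and at 162 to 576 CPM in transitory Teff, lower in 11 of 11. Of all genes, 0.364% were lower in every clonotype. That share is low partly because a gene with no UMI on either side of a clonotype cannot be lower there. Itgae, for example, was lower in 2 and higher in 0 of 11. Genes of a level like that of Itgb1 were not set beside it. Itgb7 was lower in 10 of 11. Selplg was lower in 10 and Itga4 and Cd44 in 9 of 11. Itgal and Itgb2 were higher in 6 and lower in 5. Itgb1, which just missed the call between the whole clusters, was thus the gene of the 9 that was lower in every clonotype. Cycling cells and transitory Teff shared 15 clonotypes in 10 such sets, and Itgb7 was higher in cycling cells in 11 of them.

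**Figure D5:**
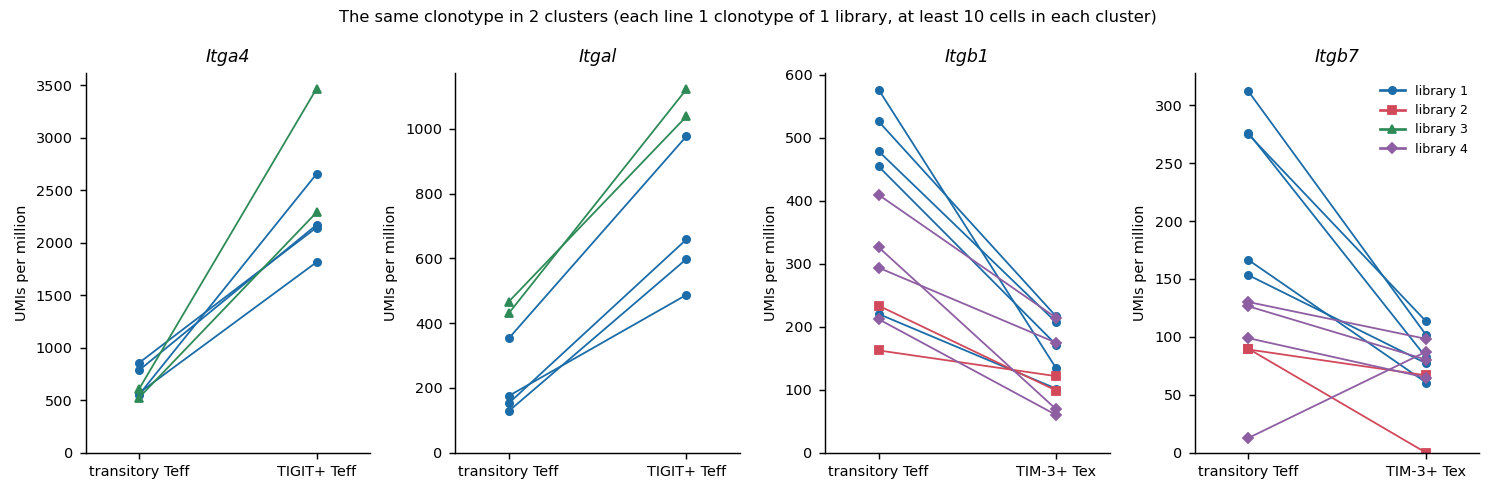
Level in CPM (vertical axis, starting at 0) of the same clonotype in transitory Teff (left of each panel) and in TIGIT+ Teff or TIM-3+ Tex (right), with a line for each clonotype coloured by library. Itga4 and Itgal are higher in TIGIT+ Teff on 6 of 6 lines, and in TIM-3+ Tex Itgb1 is lower on 11 of 11 and Itgb7 on 10 of 11 lines.

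Within transitory Teff the 17 clonotypes with at least 15 cells, 496 cells in all, differed from each other in the integrins. The 4 clonotypes at the ends of the range of Itgb7 and Itgb1 are shown by the nucleotide sequence of the CDR3 of their TRB chain, as deposited, with no capitals.
TRBV10 clonotype of library 2: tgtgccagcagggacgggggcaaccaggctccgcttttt
TRBV3 clonotype of library 4: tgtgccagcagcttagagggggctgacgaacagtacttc
TRBV17 clonotype of library 2: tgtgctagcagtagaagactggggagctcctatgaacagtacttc
TRBV1 clonotype of library 1: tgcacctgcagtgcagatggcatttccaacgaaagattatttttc
The TRBV10 clonotype, with TRAV7-5 and 24 cells, held 1 UMI of Itgb7, or 11.8 CPM (0.298 to 65.7), beside 295 CPM of Itgb1 and 542 of Itga4. The TRBV3 clonotype, with 17 cells, held 37 UMIs of Itgb7, or 313 CPM (220.3 to 431). The TRBV17 clonotype, with TRAV9-1 and 64 cells, was the lowest in Itgb1 with 162 CPM (121 to 214). The TRBV1 clonotype, with TRAV12-2 and 19 cells, was the highest with 526 CPM (388 to 697). Itgal lay between 148 CPM in a clonotype of library 4 and 430.3 CPM in the TRBV16 clonotype of library 3.

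Itga4 was the steadier chain, between 396 and 855 CPM with a median of 686. The variance between clonotypes, divided by that of Poisson counts at a common level, was 2.87 for Itga4, 5.79 for Itgb1, 4.50 for Itgb7, 4.93 for Itgal, 5.54 for Itgb2, 7.08 for Selplg and 1.49 for Cd44. Clonotypes of different libraries enter it, so it holds differences between libraries too. At the same relative spread it is larger for a gene with more UMIs, so it does not rank the genes. Selplg, with the largest value, ranged only 1.97-fold, from 700 to 1380 CPM. Cd44, with the smallest value given, ranged from 0 to 86.5 CPM. Some of the 17 share a TRB chain, with a second entry lacking the TRA chain. The TRBV17 sequence above occurs again in library 2 without a TRA chain (25 cells), with 89.8 CPM of Itgb7 against 89.2. The TRBV16 chain of library 4 occurs in entries of 67 and 30 cells, with 409 and 326 CPM of Itgb1 and 130.1 and 126 CPM of Itgb7.

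Partner chains were counted in the same cells, each thinned to 2500 UMIs. In cycling cells 54.4% (51.7% to 57.1%) of the cells with Itga4 and 38.2% (34.4% to 42.3%) of those without it held Itgb1. The difference was 16.8, 7.05, 32.0 and 4.18 percentage points in libraries 1 to 4, and in libraries 2 and 4 the intervals of the shares overlapped. In TIGIT+ Teff these shares were 68.3% and 54.2%, and in Tcm 35.1% and 32.8%, a difference of 2.30 percentage points. For Itga4 and Itgb7 the shares were 43.2% and 35.6% in cycling cells and 16.1% and 15.8% in TIM-3+ Tex. For the chains of LFA-1, Itgb2 was found in 73.7% of GzmA+ Tex cells with Itgal and 61.1% of those without, and in TIGIT+ Teff in 79.7% and 77.6%. Cells of a cluster differ in state, and what part of these differences belongs to the pair of chains was not tested.

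Libraries differed in these genes most in cycling cells. There 5 of the 9 genes were at least 2-fold apart between the highest and the lowest library, where 21.4% of all genes were. Itga4 was at 731, 439.96, 905 and 424 CPM in libraries 1 to 4, Itgb1 at 335, 208, 509 and 269.9 CPM, and Itgal at 215, 166, 346 and 146 CPM. Library 3 was the highest for 8 of the 9 genes. When 1 cell per clonotype was kept, 0 of the 9 were 2-fold apart, from fewer cells. Whether genes in general came closer between libraries in that setting was not tested. In the Teff and Tex clusters together 4 of 9 were 2-fold apart, where 14.5% of all genes were, and library 3 was the highest for 7. These clusters were mixed in different shares: TIGIT+ Teff made up 23.0%, 5.07%, 39.2% and 3.94% of their cells in libraries 1 to 4. Within single Teff and Tex clusters the highest library held 1.14 to 1.77 times the Itga4 of the lowest. For Itga1 this reached 7.24 times in GzmA+ Tex and for Itgae 10.8 times in transitory Teff, both from few UMIs. The part of the cluster shares in the spread between libraries was not tested. With 1 cell per clonotype 2 of the 9 genes were 2-fold apart in the Teff and Tex clusters together, again without a share of all genes to set beside it. In Tcm (14.5% of all genes) and in Tn (21.1%), 2 genes were 2-fold apart, Itgae and Itga1, the 2 of fewest UMIs. In Tn Itga4 was at 129 CPM in library 2 and at 66.3 to 78.2 CPM in the other 3 libraries.

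Other genes of adhesion were taken from 5 lists of integrin subunits, activators and adaptors of integrins, ligands, enzymes of selectin ligand glycosylation and further adhesion molecules, of which 64 had enough UMIs. Between the Teff and Tex clusters and Tn, 17 of the 64 were called higher and 2 lower, beside 13.5% and 1.82% of all genes. Among those higher were Chst2, a sulfotransferase that modifies selectin ligands (22.6 against 1.19 CPM, log2 4.25), Itgav, the αV integrin (55.9 against 12.8 CPM, 2.13), and the tetraspanin Cd9 (1.51). In Tcm against Tn 6 were called higher and 4 lower, beside 5.46% and 1.97% of all genes. Itga2, another collagen-binding α chain, was at 23.4 against 3.49 CPM (2.75) and Cd226 at 125 against 58.5 CPM (1.09). Of the 4 lower genes Rasgrp2, an activator of Rap1 upstream of integrins, was at 51.1 against 120.4 CPM (-1.24), and Itgb3, Rap1gap2 and Cdh1 were under 20 CPM on both sides. Both collagen-binding chains, Itga1 and Itga2, were thus higher in Tcm.

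In TIGIT+ Teff 17 of the 64 were called higher and 1, Vcam1, lower, beside 13.0% and 0.946% of all genes. Among the genes called higher with at least 20 CPM the highest ratios were those of Itga2 (log2 1.76), Cd226 (1.48), which encodes the activating receptor DNAM-1, and Chst2 (1.32). In single libraries Itga2 lay between 0.63 and 2.13, Cd226 between 0.79 and 1.47 and Chst2 between 0.06 and 1.16. For Cd226 and Chst2 the ratio over the libraries together was thus above that of every single library. Among the 25 activators and adaptors tested 3 were called, with a median of 0.37 against 0.35 for all genes. In cycling cells 0 were called higher and 2, Vcam1 and Cdh1, lower, beside 2.67% of all genes called lower. Vcam1 was at 3.40 against 9.20 CPM, and cycling cells were above TIM-3+ Tex and transitory Teff in it. In TIM-3+ Tex against transitory Teff 2 were called higher and 6 lower, beside 1.71% and 1.97% of all genes. Chst2 (1.02) and Itgb8 (2.14, under 20 CPM) were higher, and Itgax, an αX integrin (-1.80), Crtam (-1.48) and Icam2 (-1.15) were lower. Between expanded and single cells of transitory Teff 0 were called higher and 1 lower, Cdh1, at 0.331 against 2.39 CPM and so from few UMIs. Genes named here below 20 CPM were chosen after their values were seen.

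Likeness of pattern was measured as Pearson's r of log2(CPM + 10) over the 32 cluster and library combinations, among 4076 genes, and is a description over points that share libraries and depth. The genes most like Itga4 were Fam129a (0.97), Nsmaf (0.96) and Hip1 (0.96). Itgb1 was most like Heg1 (0.92), Atp2a3 (0.92) and Usp4 (0.90), and Itgb7 like Cdc25b (0.82), Vim (0.81) and Kcnab2 (0.80). Itgal was most like St8sia4 (0.95), Sorl1 (0.95) and Os9 (0.94), and Itgb2 like Lcp2 (0.95), Fyn (0.95) and Osbpl3 (0.94). For Selplg the closest was Apbb1ip (0.80), for Cd44 Lrch3 (0.90), for Itga1 Mical1 (0.79) and for Itgae Nptn (0.72). Among the 9 themselves r was 0.82 for Itga4 with Itgb1 and 0.36 for Itga4 with Itgb7.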

How the data were processed

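CD8+ T cells of BM were profiled with the 10x 5′ kit, 1 library for each of 4 treatment groups. For the reads, Cell Ranger 7.00 and mm10 are named in the submitters' processing notes. The authors equalised read depth between libraries, filtered cells on UMI number, mitochondrial reads and T cell transcripts, and clustered them in Monocle3, with clonotypes from scRepertoire. Whether intronic reads were included is not given in the sources used here. The values deposited by the authors are UMI counts without normalization, and the deposited mitochondrial share is a fraction. Since library numbers carry no treatment, treatments were not compared, and with 1 library per group no test was run.

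A level is the sum of a gene's UMIs over cells, divided by all UMIs of those cells and scaled to 1000000 (CPM). Symbols came from GENCODE M21, which matched 17549 of 17561 gene IDs. Intervals at the 95% level are exact Poisson for levels, conditional binomial for ratios and Clopper-Pearson for shares, and hold counting error only. For a sum of 0 the limit is 3 counts. Only genes with 100 or more UMIs were compared. Thinning took 2500 UMIs of every cell at random (seed 7), and no cell had fewer. Depth ran from 15556967 to 38440687 UMIs in a library, and precision is lowest for TIM-3+ Tex of library 3, with 31 cells. Doublets were not called, and cells carrying 2 or more TRB chains were dropped in an alternative. Cells without a TCR call were left out where clone size was used.

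Earlier results of these data were known when the 9 genes, the lists and the comparisons were chosen. The text gives the 3 genes most like Itga4, Itgb1, Itgb7, Itgal and Itgb2, and only the 1 most like Selplg, Cd44, Itga1 and Itgae each. From the adhesion lists it names called genes with the 3 largest ratios in each direction and 20 CPM on the higher side. A gene that this rule would name is not reported here. Clone size outside transitory Teff, the comparisons within clonotypes, the choice of large clonotypes and the removal of shared barcodes were added after seeing the data. The alternatives varied depth, weights, cells, cluster labels, the fold and an added 10 CPM, and omitted single libraries. All steps ran in Python 3.11.15 (pandas 2.3.3, scipy 1.17.1, numpy 2.4.6, figures in matplotlib 3.10.9) and were tested on simulated data.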

Additional observations from a re-analysis of the deposited data

How the results depend on the processing

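Of the 12 ratios that were called, all 192 values under the alternatives kept their direction, and 136 lay within the counting interval of the reported ratio. The number of the 9 genes called moved more. Against Tn, the Teff and Tex clusters had 4 genes called, 2 with 10 CPM added to both sides, and 3 to 6 when a library was left out, with Itgal and Itgb2 gained without library 4. Tcm had 2 called against Tn and 1, Itga1 alone, when cells were thinned, when each cell had the same weight, without cells with macrophage, B or plasma cell transcripts, without cells with 2 or more TRB chains or with 10 CPM added, and 6 at a fold of 1.5. Without any single library it stayed at 2. Cycling cells had 0 called and 2 at a fold of 1.5, and 0 without any single library. TIGIT+ Teff had 4 called and 4 to 5 without a library, with Itga1 lost with 10 CPM added and without cells with transcripts of other cell types, and Cd44 gained in the latter, when cells were thinned, when each cell had the same weight and at a fold of 1.5. TIM-3+ Tex had 1 called against transitory Teff and 2 when cells were thinned, when each cell or each library had the same weight and at a fold of 1.5, with Itgb1 gained each time, 3 without cells with macrophage, B or plasma cell transcripts, with Itgae and Itga1 gained, and 1 to 2 without a library. Expanded against single cells of transitory Teff had 1 called, 0 with 10 CPM added, and 1 to 2 without a library, with Itgae gained without library 4. Keeping 1 cell per clonotype lowered the genes 2-fold apart between libraries from 4 to 2 in the Teff and Tex clusters and from 5 to 0 in cycling cells, from fewer cells. No share of all genes in that setting stands beside these counts. The causes of these and the other changes were not tested. Leaving out cells with transcripts of other cell types left 10 of 571 GzmA+ Tex cells, so that cluster was not described without them. In TIGIT+ Teff Itga4 was at 1901 CPM in the 320 cells left. No paired analysis was possible because each group is 1 library and no test was run. Depth limits Itgae and Itga1, with 259 and 1020 UMIs in all cells.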
